A study of Homo sapiens with 6 samples.

Results

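The 9 genes described here encode the enzymes of serine synthesis (PHGDH, PSAT1 and PSPH) and of the folate one-carbon cycle in the cytosol (SHMT1 and MTHFD1) and in mitochondria (SHMT2, MTHFD2, MTHFD2L and MTHFD1L). They were chosen by symbol, and all 9 were found among the 24489 rows of the expression table. RNA-seq had been run on LN229 cells, an established human glioblastoma line, in 3 libraries of cells transduced with a vector and 3 libraries of cells transduced to overexpress LACTB, a mitochondrial protein related to bacterial penicillin-binding proteins. All libraries share the LN229 background and a transduction, and the sources used here do not say which promoter drove LACTB, how long after transduction the cells were taken, or whether a clone or a pool was used. The study's stated aim was to learn what LACTB does in glioma cells.

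PHGDH oxidises the glycolytic intermediate 3-phosphoglycerate, PSAT1 transaminates the product, and PSPH removes the phosphate to give serine. SHMT1 in the cytosol and SHMT2 in mitochondria split serine into glycine and a one-carbon unit carried by tetrahydrofolate. In mitochondria MTHFD2, or its relative MTHFD2L, oxidises that unit and MTHFD1L releases it as formate, which the cytosolic trifunctional enzyme MTHFD1 takes up again for purine and thymidylate synthesis. Several of these genes are known targets of ATF4, a transcription factor of the amino acid response, and MTHFD2 and SHMT2 are often high in tumour cells.

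Values are normalized read counts as deposited, and each difference is LACTB minus vector on the scale of log2(value + 1), which understates the change of low genes. A gene was called higher or lower where the limma test over 12939 genes gave a Benjamini-Hochberg adjusted p under 0.05. With LACTB, 3 of the 9 enzyme genes were called lower (SHMT2, PHGDH and SHMT1) and 0 higher, while 24.6% of all tested genes were called lower and 27.4% higher. All 9 passed the filter on low values. The 9 had a median difference of -0.11, against 0.05 over all tested genes. The serine synthesis enzymes gave 1 lower call of 3, the cytosolic folate enzymes 1 of 2 and the mitochondrial folate enzymes 1 of 4, so each of the branches held members that passed and members that did not. None of the 6 others passed at an unadjusted p under 0.05 either. With equal column totals 2 were called higher and 2 lower, against 38.4% and 14.8% of tested genes, and with median centring 0 higher and 4 lower, against 20.7% and 32.1%. With quantile normalization 1 was called higher and 2 lower, against 24.8% and 25.5%. With the trend on transcript length and GC content removed from each library 2 were called higher and 4 lower, against 27.6% and 21.8%.

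LACTB transcripts checked the labels, with 393 to 515 normalized counts in the vector libraries and 4078 to 4268 in the LACTB libraries. Column totals were 38049107 to 41384269 in vector libraries and 34907025 to 35683521 in LACTB libraries, so rescaling to equal totals raises the LACTB values relative to vector. Of the glial markers, VIM had a mean of 25367 in vector and 35300 in LACTB cells. GFAP was low, with a mean of 74.5 in vector and 122 in LACTB cells. PTPRC of leukocytes and EPCAM of epithelium stood at no more than 14.6 in any library. CD68 (mean 1076 in vector and 1614 in LACTB cells) and KRT18 (mean 5553 in vector and 2493 in LACTB cells) were present. Several marker genes differed between groups, in both directions. VIM, SOX2, CD44, GFAP and CD68 were called higher with LACTB, and OLIG2, S100B, KRT8 and KRT18 lower, while NES and PDGFRA were not called. SOX2 averaged 1131 ± 146 without and 2674 ± 313 with LACTB, and S100B 33778 ± 5580 and 14499 ± 2186. The part of these marker differences in the results below was not tested. In bulk RNA, fewer cells expressing a gene and less RNA per cell cannot be told apart.

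The sequences before the start sites of 3 members are shown because 2 of them (PHGDH and SHMT1) were called lower and the other (MTHFD1L) was not called but holds the letters of an ATF4 composite element. They are RefSeq sequences on GRCh38.p14, 250 bases each, read 5′ to 3′ on the strand of the gene, with matches to 2 motifs in capitals. Both strands were searched over windows of 300 bases (250 before the start and 50 after it) for the ATF4 composite element TGATGNAA, for the E-box CACGTG bound by MYC family factors, and for the sterol element TCACNCCAC. RefSeq windows were found for 7 of the 9 genes. The table used here held no window for SHMT2 and PSPH.
PHGDH, chr1:119711684-119711933, plus strand: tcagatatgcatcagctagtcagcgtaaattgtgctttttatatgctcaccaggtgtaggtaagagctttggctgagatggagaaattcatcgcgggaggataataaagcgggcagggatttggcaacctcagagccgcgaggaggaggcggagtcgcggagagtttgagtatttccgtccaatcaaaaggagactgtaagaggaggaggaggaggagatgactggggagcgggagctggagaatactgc
SHMT1, chr17:18363551-18363800, minus strand: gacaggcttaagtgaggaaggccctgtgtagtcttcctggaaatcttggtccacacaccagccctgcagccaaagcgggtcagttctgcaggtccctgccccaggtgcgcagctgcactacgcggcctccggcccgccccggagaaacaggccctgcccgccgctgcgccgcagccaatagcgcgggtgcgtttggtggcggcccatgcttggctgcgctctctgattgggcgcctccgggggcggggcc
MTHFD1L, chr6:150866236-150866485, plus strand: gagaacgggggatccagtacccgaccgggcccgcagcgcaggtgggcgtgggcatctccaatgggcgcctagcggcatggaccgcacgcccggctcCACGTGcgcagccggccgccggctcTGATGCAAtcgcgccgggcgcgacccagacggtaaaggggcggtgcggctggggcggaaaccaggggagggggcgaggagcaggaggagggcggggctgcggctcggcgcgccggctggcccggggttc

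In MTHFD1L the element TGATGCAA began 129 bases before the start and CACGTG 154 bases before it, so both lie in the capitals above. The PHGDH and SHMT1 windows held none of the 3 motifs, nor did those of PSAT1, MTHFD2 and MTHFD2L, and the MTHFD1 window held CACGTG 15 bases before the start. Among 35116 RefSeq windows of the same length, 3.62% held TGATGNAA, 7.26% CACGTG and 1.13% TCACNCCAC. MTHFD1L has 4 RefSeq windows, of which 3 overlap and hold both motifs, and the first listed is shown, and the PHGDH start used by RefSeq lies inside the longer gene annotated by GENCODE. The absence of a match says only that these letters are not in this window.

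SHMT2, the mitochondrial serine hydroxymethyltransferase (chromosome 12, 57229327 to 57234935, plus strand, GRCh38), fell the most of the 9. The vector libraries held 20422, 18446 and 22088 normalized counts and the LACTB libraries 11143, 9543 and 9649. Every LACTB library was thus below every vector library, by a margin several times the spread within either group. Of all tested genes, 28.7% had every LACTB library below every vector library. The means were 20319 ± 1823 and 10112 ± 894 (SD, n = 3 each), a 2.01-fold lower level. On the log2 scale the difference was -1.01 (SE 0.12, 95% interval -1.25 to -0.77, limma adjusted p = 3.8e-07). Among the tested genes, 569 (4.40%) had a larger fall. SHMT2 was called lower in all 17 fits tried, with differences from -1.14 with median centring to -0.76 with the trend on transcript length and GC content removed. The 50 tested genes nearest to SHMT2 had a median difference of -0.21, and -0.11 with the length and GC trend removed. Of these 50, 19 were called lower and 5 higher, against 24.6% and 27.4% of all tested genes. The 3′ end of SHMT2 overlaps NDUFA4L2 on the opposite strand (mean 50.9 normalized counts).

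SHMT1, the cytosolic enzyme of the same reaction (chromosome 17, 18327860 to 18363563, minus strand), stood at 4680, 5065 and 5228 in vector libraries and at 3863, 4281 and 4249 in LACTB libraries. The groups did not overlap, which held for 28.7% of tested genes with LACTB below. The difference was much smaller than that of SHMT2, at -0.27 (SE 0.11, 95% interval -0.50 to -0.05, limma adjusted p = 0.041). Its call was lost in 11 of the 16 other fits. These included equal column totals (-0.08, adjusted p = 0.53), quantile normalization (-0.12, adjusted p = 0.33), the length and GC trend removed (-0.02, adjusted p = 0.85) and the replicate number as a block (adjusted p = 0.056). Leaving out any one library other than vector library 1 also ended it, with adjusted p up to 0.19. The 3′ end of SHMT1 overlaps SMCR8 on the opposite strand (mean 2041 normalized counts), and since no strand setting is known, reads of the pair cannot be told apart there. SHMT1 also has the annotated pseudogene SHMT1P1.

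**Figure D1:**
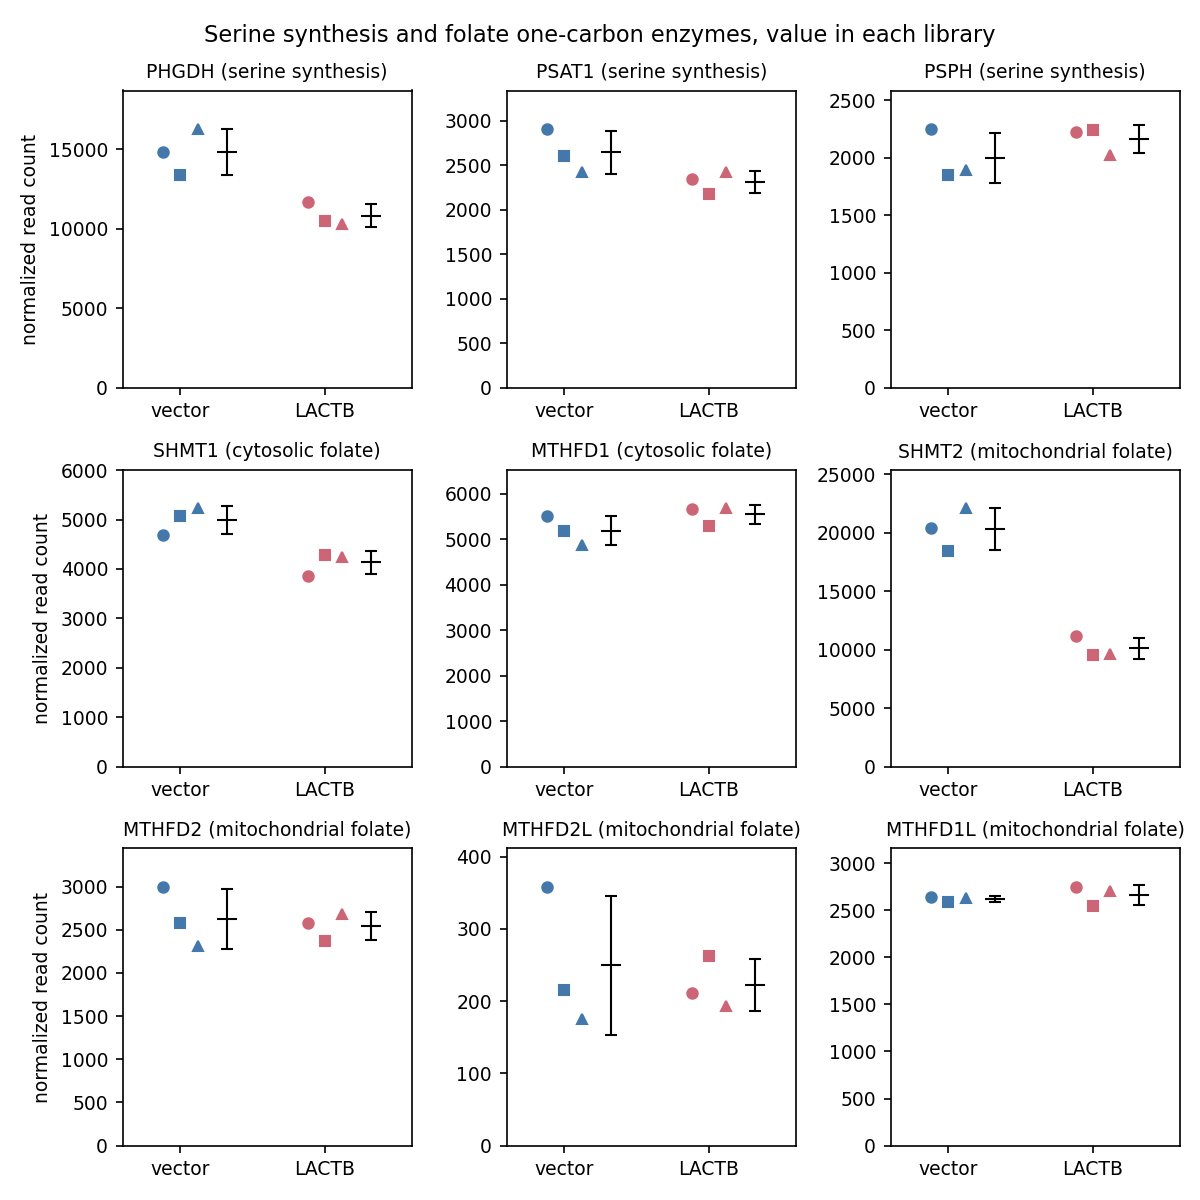
Normalized read count (y axis, from 0) of the 9 enzyme genes in 3 vector libraries (blue) and 3 LACTB libraries (red), with circles, squares and triangles for libraries 1, 2 and 3 and bars for the mean ± SD. SHMT2 drops from 20319 to 10112 and PHGDH from 14804 to 10820, while the groups of MTHFD1, MTHFD2, MTHFD2L, MTHFD1L and PSPH overlap.

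The dehydrogenases and formate enzymes downstream of the SHMT step did not pass the test. MTHFD2, the mitochondrial methylene-tetrahydrofolate dehydrogenase (chromosome 2, 74198562 to 74217565), held 2992, 2574 and 2309 in vector and 2576, 2374 and 2686 in LACTB libraries. Those ranges overlap almost fully, with a difference of -0.04 and a 95% interval of -0.29 to 0.21 (limma adjusted p = 0.81). MTHFD1L, which releases formate in mitochondria (chromosome 6, 150865549 to 151101887), stood at 2639, 2581 and 2624 against 2743, 2546 and 2699. Its vector libraries were close to each other (SD 29.8 on a mean of 2615) and its LACTB libraries less so (104 on 2662), and its difference was 0.03 (95% interval -0.20 to 0.25, limma adjusted p = 0.86). The intervals of MTHFD2 and MTHFD1L do not reach the SHMT2 difference of -1.01, although smaller changes remain inside them.

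MTHFD2L, a second mitochondrial dehydrogenase gene (chromosome 4, 74114174 to 74303099), had low values, at 357, 216 and 175 in vector and 211, 262 and 193 in LACTB libraries. Vector library 1 stood apart from the rest, and the interval was accordingly wide (-0.11, 95% interval -0.59 to 0.36, limma adjusted p = 0.70). MTHFD1, the cytosolic trifunctional enzyme (chromosome 14, 64388031 to 64463457), held 5506, 5185 and 4867 in vector and 5659, 5298 and 5680 in LACTB libraries. The difference of 0.10 (95% interval -0.13 to 0.32, limma adjusted p = 0.47) was called higher when column totals were made equal (0.29, adjusted p = 0.024) or quantiles matched (0.25, adjusted p = 0.038), and was -0.14 (adjusted p = 0.21) with the length and GC trend removed. That removal also gave a lower call for MTHFD2 (-0.34, adjusted p = 0.0042) and a higher call for MTHFD1L (0.19, adjusted p = 0.041), so calls on these genes depended on the treatment of that trend. The length used was that of the longest transcript, for MTHFD1 6814 bases against 3136 for its principal transcript. The effect of that choice on the removal was not tested. MTHFD1 overlaps ZBTB25 on the opposite strand, whose mean was 189, and has the annotated pseudogene MTHFD1P1. MTHFD2 has 7 annotated pseudogene copies, so reads of MTHFD1 and MTHFD2 may be shared with other genes.

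PHGDH, which commits glycolytic carbon to serine (chromosome 1, 119648411 to 119744226, plus strand), was called lower. It held 14790, 13375 and 16248 in vector libraries and 11671, 10471 and 10319 in LACTB libraries. The groups did not overlap, as was so for 28.7% of tested genes with LACTB below and 31.1% with LACTB above. The means of 14804 ± 1436 and 10820 ± 741 (SD, n = 3 each) differed by -0.45 on the log2 scale (SE 0.11, 95% interval -0.69 to -0.21, limma adjusted p = 0.0024), a level 1.37-fold lower. PHGDH was called lower in each of the 17 fits, but the difference was as small as -0.24 (adjusted p = 0.018) with the length and GC trend removed and -0.26 (adjusted p = 0.034) with equal column totals. Its 50 nearest tested genes had a median difference of 0.30, and 0.19 with the trend removed. Of these 50, 21 were called higher and 2 lower, against 27.4% and 24.6% of all tested genes.

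PSAT1, the transaminase that follows PHGDH (chromosome 9, 78297143 to 78330093), held 2906, 2606 and 2424 in vector and 2345, 2177 and 2423 in LACTB libraries. The lowest vector value and the highest LACTB value almost coincide, and the difference of -0.19 (95% interval -0.43 to 0.05) did not pass (limma adjusted p = 0.17). It was called lower with median centring (-0.32, adjusted p = 0.030), and with the length and GC trend removed (-0.25, adjusted p = 0.012), and was 0.002 with equal column totals. PSPH, the phosphatase of the last step (chromosome 7, 56011051 to 56051604, minus strand), held 2248, 1847 and 1895 in vector and 2220, 2242 and 2024 in LACTB libraries. The groups overlapped, with a difference of 0.12 (95% interval -0.13 to 0.36, limma adjusted p = 0.41), and it was called higher with the trend removed (0.36, adjusted p = 0.0038) and when column totals were made equal (0.31, adjusted p = 0.031). Of the 50 tested genes nearest to PSPH 27 were called higher and 6 lower, against 27.4% and 24.6% of all tested genes. Their median was 0.39, and 0.36 with the trend removed. PSPH has the annotated pseudogene PSPHP1 and PSAT1 has 4 such copies, so their values are uncertain. Along the serine pathway the first gene was thus called lower and the other two were not, and whether those differences differ from each other was not tested.

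**Figure D2:**
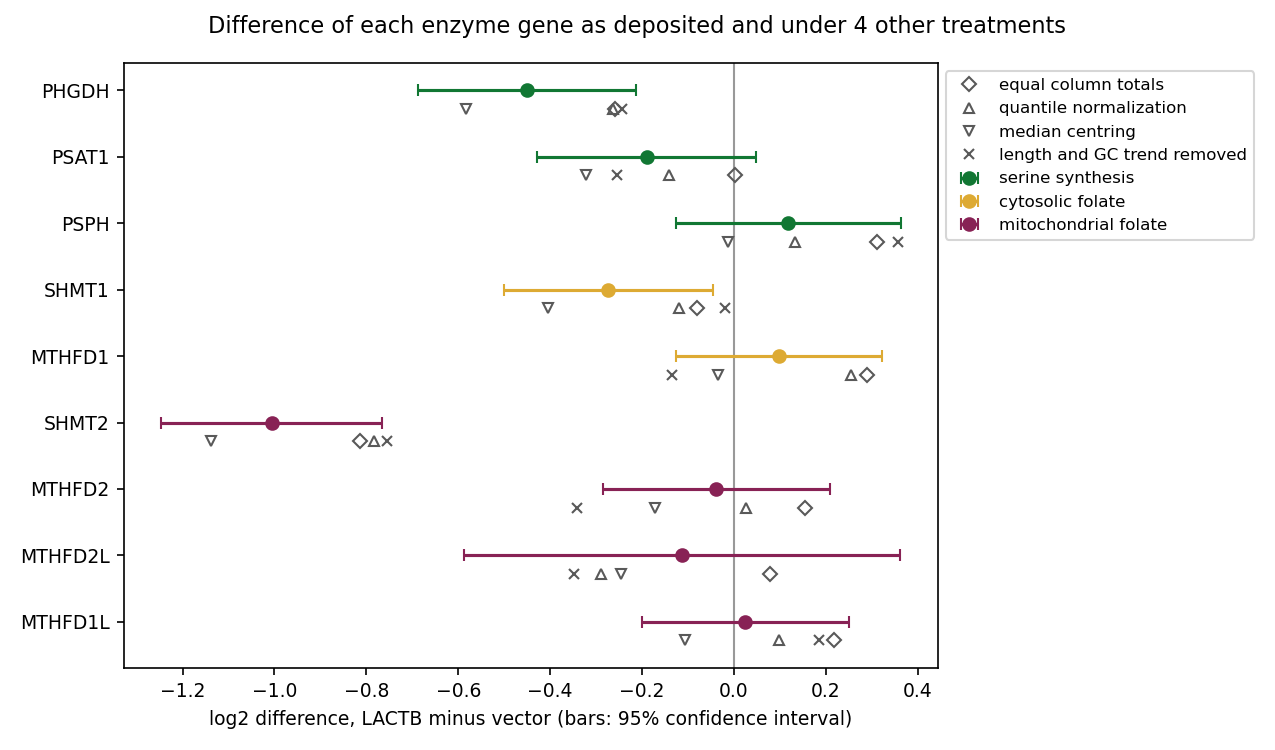
Log2 difference of each enzyme gene (x axis, LACTB minus vector), as deposited with its 95% confidence interval (coloured by branch) and under 4 other treatments of the values (grey symbols). SHMT2 (-1.01) and PHGDH (-0.45) lie below 0 under all 5, and SHMT1 does so with values from -0.41 to -0.02. PSAT1, PSPH, MTHFD1, MTHFD2, MTHFD2L and MTHFD1L each have values on both sides of 0.

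To set the mitochondrial against the cytosolic enzymes without the scaling of a library, pairs of members were compared inside each library. SHMT2 counts were 4.36, 3.64 and 4.22 times those of SHMT1 in vector libraries and 2.88, 2.23 and 2.27 times in LACTB libraries. No LACTB library reached any vector library. The log2 ratio went from 2.02 ± 0.14 to 1.29 ± 0.21 (SD, n = 3 each), a change of -0.73 (exact two-sided permutation p = 0.10, adjusted over 4 pairs 0.20). With 3 libraries against 3 the smallest p that the exact test can give is 0.10. Leaving out any one library kept that change between -0.85 and -0.67, and removing the length and GC trend left it at -0.74.

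The other pairs of members differed less in the values as deposited. MTHFD2 minus MTHFD1 went from -0.99 ± 0.10 to -1.12 ± 0.04, with all LACTB libraries below all vector libraries by a narrow margin (change -0.14, exact permutation p = 0.10, adjusted 0.20). MTHFD1L minus MTHFD1 went from -0.99 ± 0.09 to -1.06 ± 0.01, with overlapping groups (change -0.07, exact permutation p = 0.30, adjusted 0.40), but with the length and GC trend removed it was 0.32, with all LACTB libraries above all vector libraries. That removal took MTHFD1 at the length of its longest transcript (6814 bases), and a shorter one was not tried. MTHFD2 minus MTHFD2L, both mitochondrial, stood at 3.45 ± 0.34 and 3.52 ± 0.32, with overlapping groups (change 0.07, exact permutation p = 0.60, adjusted 0.60). That change was 0.31 with quantile normalization and -0.12 without vector library 1. None of the 4 pairs passed the exact test, which this design cannot pass.

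**Figure D3:**
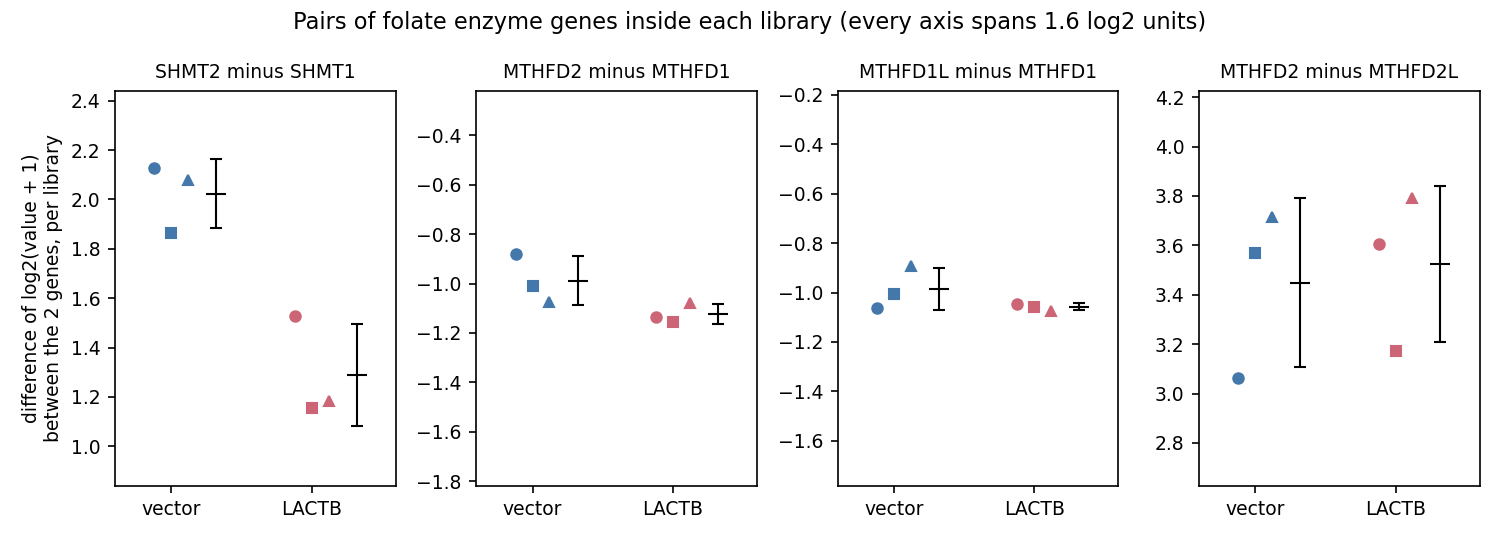
Difference of log2(value + 1) between 2 folate enzyme genes inside each library (y axis, each spanning 1.6 log2 units), for 3 vector (blue) and 3 LACTB (red) libraries, with circles, squares and triangles for libraries 1, 2 and 3 and bars for the mean ± SD. SHMT2 minus SHMT1 goes from 2.02 to 1.29, and the other 3 pairs differ by 0.14 or less.

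Levels were ordered between genes as normalized counts per kilobase of the longest annotated transcript. In vector cells SHMT2 had the highest level at 5948 ± 534 per kb, followed by PHGDH at 4655 ± 452, SHMT1 at 1811 ± 102 and PSAT1 at 1209 ± 111. SHMT2 and PHGDH did not overlap in vector cells (lowest SHMT2 library 5400, highest PHGDH library 5109). In LACTB cells PHGDH came first at 3403 ± 233 and SHMT2 second at 2960 ± 262, and there the ranges of the pair overlapped, although PHGDH exceeded SHMT2 inside each of the 3 libraries. Then came PSPH, MTHFD1, MTHFD1L and MTHFD2, between 571 and 993 per kb in the group means of either group. Of neighbours in that order, the ranges of MTHFD1 (714 to 808) and MTHFD1L (716 to 732) overlapped in vector cells, as did those of PSAT1 (995 to 1107) and PSPH (929 to 1029) in LACTB cells. MTHFD2L was the lowest in both groups at 78.4 ± 30.1 and 69.8 ± 11.3, so MTHFD2 exceeded it several times over. The place of MTHFD1 depended on the transcript chosen. Its longest transcript has 6814 bases, and per kb of the APPRIS principal transcript (3136 bases) MTHFD1 stood at 1654 ± 102 in vector cells, ahead of PSAT1 and PSPH. On that length too SHMT2 led in vector cells (8009 ± 719 against 5727 ± 556 for PHGDH) and PHGDH in LACTB cells (4186 ± 286 against 3986 ± 353).

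The genes around the enzymes were described by lists, without a test of any list, and 51.9% of all tested genes were called in either direction. Folate uptake and interconversion genes gave 5 lower and 1 higher call among 14 tested of 17, with a median of -0.17. FOLR1, a folate receptor, fell from 229 ± 55.3 to 44.9 ± 16.3, and SLC19A1, the reduced folate carrier, from 1971 ± 308 to 1050 ± 173 (log2 difference -0.91, adjusted p = 1.7e-05, and -0.57 with the trend removed). The proton-coupled folate transporter SLC46A1, named after its value was seen, fell by 0.64 (adjusted p = 0.02), and its values in other fits are not given. The gene of this list that was called higher is not reported here. FPGS, which adds the glutamate tail that retains folate in the cell, fell by 0.62 (adjusted p = 0.00015), a call lost with the length and GC trend removed (-0.14, adjusted p = 0.091). Thymidylate synthase TYMS (-0.20, adjusted p = 0.13) and the mitochondrial folate carrier SLC25A32 (0.22, adjusted p = 0.21) did not pass. TYMS was called lower with median centring (adjusted p = 0.022), and SLC25A32 higher with equal column totals (adjusted p = 0.037) and without vector library 1 (0.042).

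Among glycine cleavage and serine breakdown genes 1 was called higher and 2 lower of 7 tested of 9 (median 0.03). DLD, a subunit shared with other mitochondrial dehydrogenase complexes, rose from 1028 ± 298 to 1692 ± 168 (log2 difference 0.76, and 0.47 with the trend removed). GCSH, the lipoyl carrier of the glycine cleavage system, fell by 0.46 (adjusted p = 0.0031) but not with equal column totals (-0.26, adjusted p = 0.070), and SDSL fell by 0.54, a call lost with equal column totals (adjusted p = 0.078), with the trend removed (-0.03, adjusted p = 0.88) and without LACTB library 2 (0.051). GLDC, the decarboxylase of glycine cleavage, stood at 233 ± 85.3 and 165 ± 23.2 (adjusted p = 0.12) and was called lower with median centring (0.035), quantile normalization (0.037) and without vector library 2 (0.028). Its difference of -0.44 was -0.25 (adjusted p = 0.39) with equal column totals and -0.17 (adjusted p = 0.52) without vector library 1.

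The methionine cycle and transsulfuration list gave 3 higher and 3 lower calls among 12 tested of 15 (median 0.04). Methionine synthase MTR, which takes the methyl group from folate, rose from 1069 ± 283 to 1665 ± 135 (adjusted p = 0.0012). That call was lost with the length and GC trend removed (0.18, adjusted p = 0.22). The MTR reductase MTRR rose by 0.62 (adjusted p = 0.0022) and AHCYL2 by 0.49 (adjusted p = 0.011). With the trend removed only 1 gene of the list was called higher, so MTRR and AHCYL2 did not both keep their calls. NNMT, which uses S-adenosylmethionine to methylate nicotinamide, fell by 1.27. CBS, the first step of transsulfuration, fell by 1.26, and AHCY, which clears S-adenosylhomocysteine, fell by 0.49. CBS was at -0.81 with a pseudocount of 1 CPM. AHCY was at -0.29 with equal column totals and -0.26 with quantile normalization, and its call was lost with the trend removed (-0.14, adjusted p = 0.12).

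Purine synthesis, the main use of formyl units, gave 2 higher and 3 lower calls among 13 tested of 13 (median -0.07). GART, which uses formyl-tetrahydrofolate, fell from 7258 ± 1261 to 4253 ± 84.9 (log2 difference -0.76, adjusted p = 2.4e-05). ATIC, the other formyl-using enzyme, stood at 9262 ± 810 and 8685 ± 328 (adjusted p = 0.51). IMPDH2 fell by 0.44, which did not hold after quantile normalization (-0.22, adjusted p = 0.055) or with the trend removed (-0.08, adjusted p = 0.35), and it was at -0.25 with equal column totals. The first enzyme, PPAT, rose by 0.75 with overlapping groups, which did not hold without vector library 3 (0.45, adjusted p = 0.089) or without limma's trend and robust settings (adjusted p = 0.050), and was 0.47 with the trend removed. PRPS2 rose by 0.39 (adjusted p = 0.030), which did not hold without vector library 3 or LACTB library 1 or 3, with median centring or quantile normalization, or with the trend removed. Serine and glycine transport genes gave 2 higher and 3 lower calls among 12 tested of 13 (median 0.03). SLC38A2 rose from 3724 ± 542 to 6521 ± 665 and the glycine transporter SLC6A9 from 824 ± 129 to 1378 ± 180, while SFXN3 fell from 9303 ± 576 to 5661 ± 195 and SFXN4 fell by 0.57. With the trend removed SLC38A2 was at 0.43, SFXN3 at -0.45 and SFXN4 at -0.34, each still called, and SFXN4 was at -0.38 with equal column totals. SFXN1, a mitochondrial serine carrier, differed by -0.08 (adjusted p = 0.57), and by -0.27 (adjusted p = 0.0075) with the trend removed.

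The list of the ATF4 amino acid response gave 3 higher and 9 lower calls among 21 tested of 23 (median -0.09). ATF4 transcripts themselves held 20650, 17258 and 18277 in vector and 18224, 17427 and 18067 in LACTB libraries, a difference of -0.06 (adjusted p = 0.67). With the length and GC trend removed ATF4 was called higher (0.33, adjusted p = 0.0042). It was also above 0, without a call, with equal column totals (0.13), with quantile normalization (0.20, adjusted p = 0.067) and without vector library 1 (0.01). In the other fits ATF4 was below 0 and not called, so its direction depends on the treatment and on the libraries kept. The secreted glycoprotein gene STC2 rose by 2.50 and the cystine transporter gene SLC7A11 by 1.92, while DDIT4 fell by 1.26 and CEBPB fell by 1.08. With the trend removed DDIT4 was at -0.83 and CEBPB at -0.51, both still called lower. ASNS, with RefSeq windows of which one holds the element TGATGAAA, was below the filter at 26.6, 25.5 and 22.4 in vector and 32.8, 49.7 and 32.9 in LACTB libraries.

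**Figure D4:**
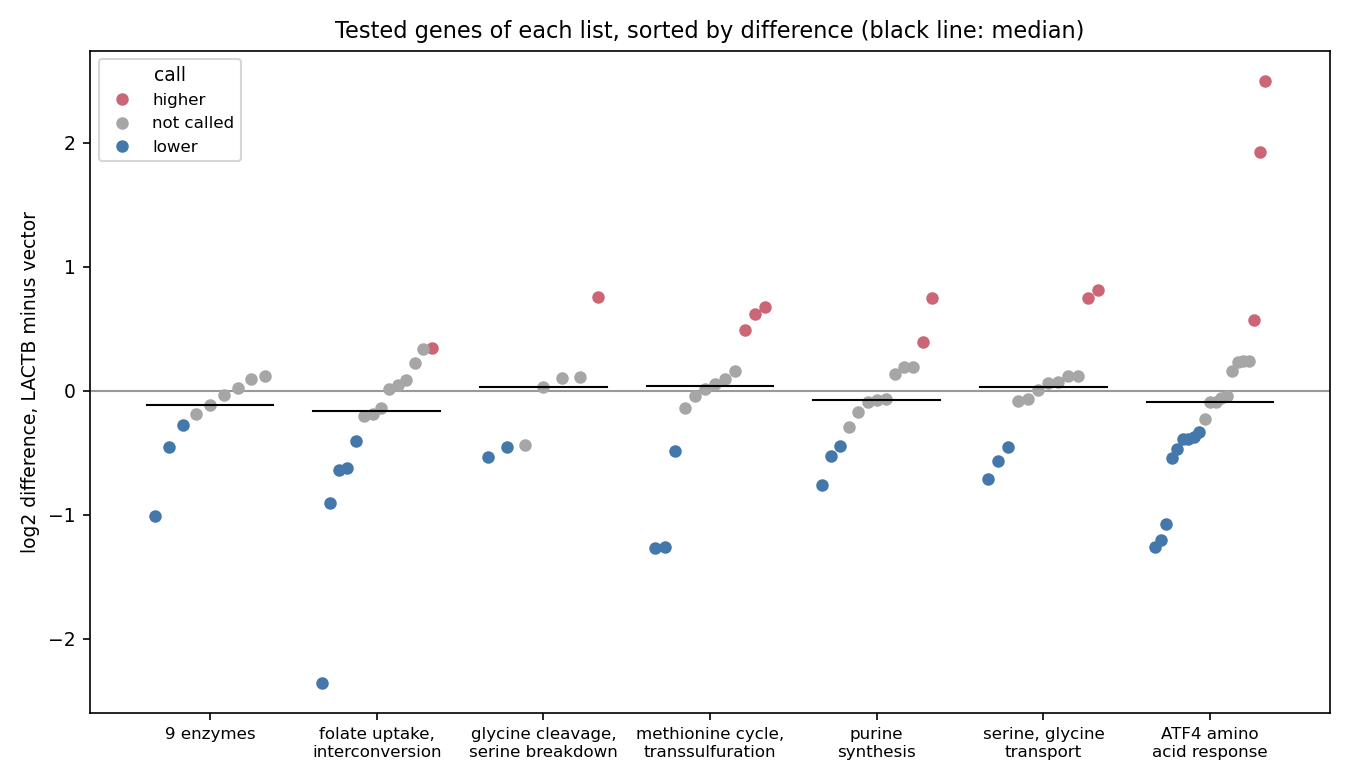
Log2 difference (y axis, LACTB minus vector) of the 9 enzyme genes and of the tested genes in 6 surrounding lists, each sorted by difference, with genes called higher in red, lower in blue and not called in grey, and the median as a black line. All 7 medians lie between -0.17 and 0.04, and the lowest point among the 9 enzymes is SHMT2 at -1.01.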

How the data were processed

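RNA-seq of LN229 cells was analysed in 3 vector and 3 LACTB libraries. The authors deposited 1 signal value per gene and library, in the form of normalized read counts. HISAT2 and the hg38 build are named per the submitters' processing notes, while counter, annotation, strand and normalization method were not given in the sources used here. Deposited values are not whole. The best single step per library left only 31.6% to 54.5% of low values within 0.05 of a whole number, so reads were not recovered, no count model was used and the depth in reads is unknown.

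Values below 1e-10 were set to 0 and taken as log2(value + 1). The filter kept genes whose mean reached 1 CPM (37.7 normalized counts). Group was the sole term of the limma fit (version 3.58.1, R 4.3.3, with its trend and robust options, two-sided, Benjamini-Hochberg over 12939 genes, threshold 0.05). A run of the fit on simulated data used far fewer changed genes than were called here, so it does not bear on these calls. For 9 symbols on more than 1 row the higher row was kept. The labels name no separate cultures. The p-values therefore reflect spread among these 6 libraries alone, and that spread may be technical.

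GENCODE 29 on GRCh38 supplied gene positions, and transcript length and GC content for 98.2% of tested genes. Members and lists were chosen with earlier results of these data known. Text names all members, the 4 genes of smallest adjusted p in each list and 11 further pathway genes wherever tested, and some of these genes are not reported here. Genes named beyond that rule (SLC46A1, MTRR, AHCYL2) were chosen after their values were seen. Of the list genes, 2 were matched by an older symbol. Alternatives were 4 other treatments of scale (median centring, equal column totals, quantile normalization, a spline on length and GC removed per library), 2 other filters, 2 pseudocounts, limma without trend and robust settings, a replicate block, leaving out each library, and stricter thresholds. The APPRIS principal transcript length was added after seeing the data. Figures used matplotlib 3.10.9 in Python 3.11.15.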

Additional observations from a re-analysis of the deposited data

How the results depend on the processing

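SHMT2 and PHGDH were called lower in all 17 fits, and of the pair PHGDH fell short of a 1.5-fold minimum. Counts of the 9 enzymes were 2 higher with equal column totals, 1 with quantile normalization and 2 with the length and GC trend removed, and 1 lower with the 1.5-fold minimum. Leaving out single libraries gave 0 higher and 2 to 3 lower. The MTHFD1L minus MTHFD1 change was -0.16 with quantile normalization and 0.32 with the trend removed, MTHFD2 minus MTHFD1 was -0.23 with quantile normalization, and MTHFD2 minus MTHFD2L was 0.31 with quantile normalization, -0.12 without vector library 1 and -0.06 without LACTB library 3. Over single libraries left out, these changes ran from -0.11 to -0.03, from -0.18 to -0.08 and from -0.12 to 0.25. Per kb of the APPRIS principal transcript the vector levels were 5727 for PHGDH, 2026 for SHMT1, 1654 for MTHFD1, 8009 for SHMT2 and 108 for MTHFD2L. With equal column totals, calls higher and lower were 6 and 4 in the ATF4 list, 2 and 3 in folate uptake, 1 and 0 in glycine cleavage and 5 and 2 in purine synthesis. Over all tested genes the shares in that fit were 38.4% higher and 14.8% lower. With the trend removed the calls higher and lower were 6 and 5 in the ATF4 list, 2 and 4 in folate uptake, 2 and 1 in glycine cleavage and 1 and 4 in the methionine cycle, against 27.6% and 21.8% of tested genes. Median centring left 0 higher in folate uptake and 1 in purine synthesis, against 20.7% of tested genes called higher. A filter at 5 CPM left 3 lower in folate uptake, and limma without trend and robust settings left 1 higher in purine synthesis. An adjusted p threshold of 0.01 gave 0 higher and 3 lower in folate uptake and 1 higher in purine synthesis. The 1.5-fold minimum gave 3 lower in the ATF4 list, 0 higher in folate uptake, 0 lower in glycine cleavage, 1 higher and 1 lower in purine synthesis and 1 lower in transport. Leaving out single libraries gave 0 to 2 higher and 3 to 5 lower in folate uptake, 1 to 3 lower in glycine cleavage, 0 to 3 higher in purine synthesis and 5 to 9 lower in the ATF4 list. The lowest folate count (3 lower) came without LACTB library 1 or 2, the lowest glycine count (1) without LACTB library 2, the lowest purine count (0) without vector library 3 and the lowest ATF4 count (5) without LACTB library 3. ATF4 itself was 0.33 with the trend removed. For the filters, limma settings, thresholds and left-out libraries the share over all tested genes was not worked out. Those counts therefore cannot be set against the change in all genes. The cause of the shifts in these counts and values was not tested.

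The replicate numbers in the titles gave no clear sign of pairing: deviations from the group means correlated at 0.02, 0.18 and 0.003 across genes for numbers 1, 2 and 3. Unlike numbers correlated at -0.19 to 0.16. With 3 libraries per group these values cannot settle whether the numbers pair the libraries. With the number as a block 2 enzymes were called lower and 0 higher, SHMT1 being lost (adjusted p = 0.056). The share over all tested genes in that fit was not worked out. The number of reads behind each value is unknown, so precision rests on 3 libraries per group.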

Other observations

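GART, SLC19A1 and CBS, called lower above, all lie on chromosome 21, and this was noticed after their values were seen. Of 126 tested genes with a position on that chromosome 62 (49.2%) were called lower and 14 (11.1%) higher, the highest share of lower calls among chromosomes 1 to 22 and X, with a median difference of -0.32 as deposited and -0.33 with the length and GC trend removed. The nearest tested genes had medians of -0.30 around GART, -0.31 around SLC19A1 and -0.39 around CBS. On chromosome 7, which holds PSPH, 43.1% of 606 tested genes were called higher and 11.4% lower. The part of these regional values in the results was not tested.

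As a description over 6 libraries, with the group difference shared by all such genes, the genes outside the 9 enzymes whose log2 values were most correlated with SHMT2 were PRPF6 (Pearson r = 0.9999), LTO1 (0.999) and WRAP73 (0.999). For PHGDH they were TCEA2 (0.999), TMEM219 (0.997) and POLR2E (0.997), and for MTHFD2, which was not called, PDSS2 (0.990), PDHA1 (0.990) and SAR1A (0.985).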
